A study of Rattus norvegicus with 4 samples.

Results

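Goblet cells are the mucus-making cells of the intestinal epithelium, and the 10 genes examined here encode products that these cells secrete or transcription factors that direct their differentiation. The genes are Muc2, Fcgbp and Zg16 of the mucus layer, the trefoil factors Tff1, Tff2 and Tff3, the secreted proteins Retnlb and Reg4, and the transcription factors Foxa3 and Spdef. They were taken from the deposited array table by RefSeq accession, as rows with a value on all 4 arrays, and where a gene had several rows the one with the highest mean was kept. Of the 10 genes, 6 were measured (Zg16, Tff1, Tff3, Retnlb, Reg4 and Foxa3), each by 1 row, out of 6968 named genes and 18350 rows measured in all. Tff2 had a row that was blank on all 4 arrays, and Muc2, Fcgbp and Spdef were matched to no row and were not analysed here.

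The mucus of the colon is a gel built on the mucin Muc2, which is packed into granules and released at the cell surface. Other secreted proteins are laid down in the same gel, where they hold bacteria away from the epithelium, and trefoil peptides help an injured epithelium to close. Foxa3 and Spdef act within the cell, where they take part in the gene program of goblet cells, and loss of goblet cells and thinning of mucus are known features of colitis.

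Colon tissue came from male Sprague Dawley rats, with 2 rats in each of the groups control and MSCT, and RNA of each rat was hybridized to its own one-color NimbleGen array. In the MSCT group, colitis was induced with TNBS (2,4,6-trinitrobenzene sulfonic acid) in ethanol, delivered into the colon, and GFP-labeled mesenchymal stem cells (MSCs) were later given through the tail vein. For the control group the sources differ: the sample descriptions say normal rat, whereas the design text and the paper speak of IBD control rats, so no statement here depends on whether these rats had colitis. The age of the rats is not given in the sources used here, the day of sampling for the chips is given differently in parts of the paper, and whole pieces of colon were used, so epithelium, muscle wall and infiltrating cells were measured together.

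The median intensity of the 4 arrays lay between 848 and 893, and the sources give no flag for rows near background. Groups were compared with limma over all 18350 rows, and a row passed the screen with an unadjusted limma p under 0.05 and a difference of more than 2-fold. These are the limits that the study names, but it does not name limma, so the limma shares of rows below are not its own. The methods' t-test treats each row alone and assumes equal variance in both groups. With its p, 2.11% of rows passed the same limits. These rows numbered 388, of which 191 rose and 197 fell with MSCT. Equal counts of genes are reported in the paper. With 2 arrays per group, the smallest two-sided p of an exact permutation test is 0.333, so the p-values rest on a variance shared between rows. No row had an adjusted p under 0.05, with limma or with the methods' t-test, although 2196 rows (12.0%) had an unadjusted limma p under 0.05.

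Of the 6 measured genes, 4 were higher in the MSCT group and passed the screen: Zg16, Foxa3, Retnlb and Tff3. None was lower and past it. The same screen was passed in either direction by 4.63% of all measured rows and by 4.91% of named genes, and upward by 2.12% of rows and 3.13% of named genes. Arrays of the 2 groups did not overlap for 5 of the 6 genes, these 4 and Reg4, against 45.8% of all rows. On the log2 scale the 6 genes had a median difference of 1.51, with a range from -0.56 (Reg4) to 2.65 (Zg16), whereas the median over all measured rows was -0.02 and over named genes 0.05. In tissue of mixed cells, fewer goblet cells in one group and less RNA per goblet cell cannot be told apart.

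**Figure D1:**
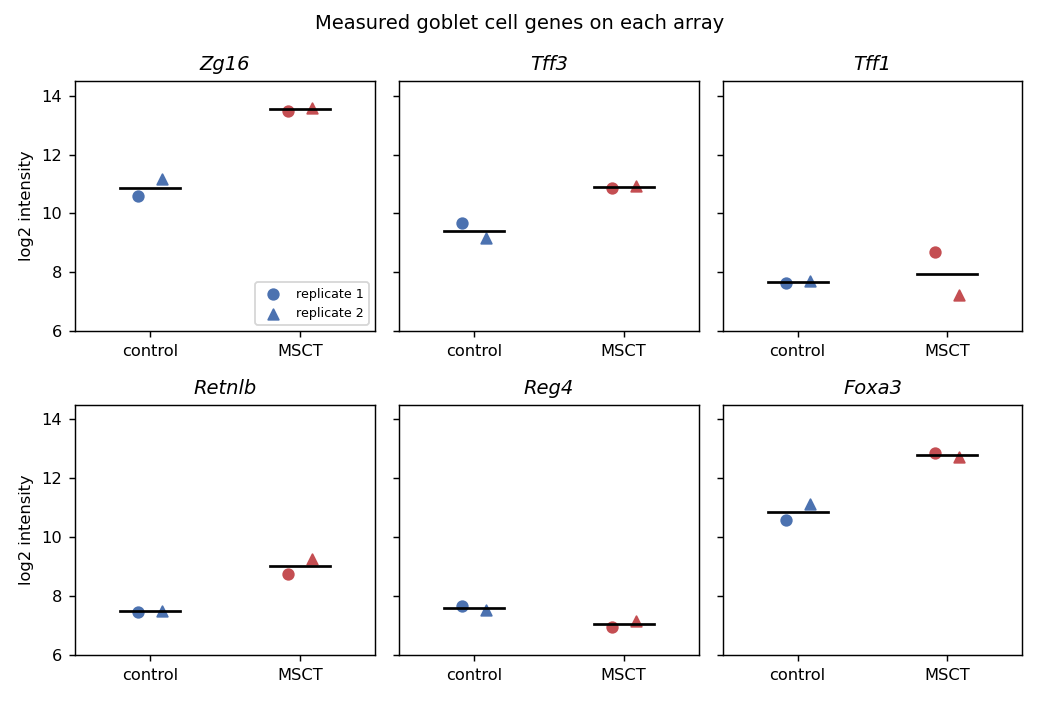
Log2 intensity of the 6 measured goblet cell genes on each array (vertical axis) in the control and MSCT groups (horizontal axis). Circles are replicate 1, triangles replicate 2 and black lines group means. Zg16, Tff3, Retnlb and Foxa3 lay higher on both MSCT arrays than on either control array, Reg4 lay lower, and the MSCT arrays of Tff1 lay on either side of the control arrays.

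Zg16 (NM_134409) encodes a lectin-like protein of the colonic mucus that binds the cell wall of Gram-positive bacteria. The control arrays gave an intensity of 1551 (replicate 1) and 2284 (replicate 2), and the MSCT arrays gave 11356 and 12369.6 in the same order. Both MSCT values were far above both control values, and the nearest pair of arrays from different groups was 2.31 apart on the log2 scale. The mean log2 intensity was 10.88 ± 0.39 (SD, n = 2) in the control group and 13.53 ± 0.09 (SD, n = 2) in the MSCT group. The difference of 2.65 (standard error 0.26), or 6.30-fold, was the largest of the 6 genes (limma adjusted p = 0.257 over all rows, unadjusted p = 3.09e-04).

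Among the trefoil factors, small secreted peptides held together by disulfide bonds, Tff3 is the one typical of goblet cells of the intestine. Tff3 (NM_013042) had an intensity of 817 and 573 in the control group and of 1883 and 1969 in the MSCT group. The MSCT arrays lay close together and the control arrays further apart, with no overlap. On the log2 scale Tff3 differed by 1.49 (standard error 0.25), or 2.81-fold (limma adjusted p = 0.260, unadjusted p = 0.00276). Without control replicate 2, which had the lower of the control values, the difference of Tff3 was 1.24, and without control replicate 1 it was 1.75.

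Tff1 and Tff2 are better known as products of the stomach, made by surface mucous cells and by gland cells. Tff1 (NM_057129) had intensities of 198 and 209 in the control rats and of 409 and 149 in the MSCT rats. The MSCT arrays thus held both the highest and the lowest value of Tff1, and the groups overlapped. The difference was 0.28 (standard error 0.52; limma adjusted p = 0.852). It was 1.01 without MSCT replicate 2 and past the screen, and -0.45 without MSCT replicate 1. Of 9 markers of the stomach, 1 was measured, the pepsinogen gene Pgc, at 114 and 118 in the control rats and 168 and 73.9 in the MSCT rats, so it was also highest on MSCT replicate 1 and lowest on MSCT replicate 2. The stomach marker Gkn1 had a blank row. In the RefSeq gene table the 3 trefoil genes are neighbours, with Tff2 between Tff3 and Tff1, and of the pair that was measured, Tff3 passed the screen and Tff1 did not.

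Retnlb (NM_001024281) encodes the resistin-like molecule RELMβ, a protein secreted by goblet cells that acts against bacteria and worms. It read 177 and 182 in the control group against 430 and 614 in the MSCT group. The control arrays were nearly equal, and both MSCT arrays were above them. Retnlb differed by 1.52 in log2 intensity (standard error 0.25), or 2.86-fold (limma adjusted p = 0.260, unadjusted p = 0.00257). Retnlb was dim on the control arrays, where it lay at the 14.1 and 13.4 percentile of all measured rows, and it reached the 34.7 and 41.0 percentile on the MSCT arrays.

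Reg4 (NM_001004096), a secreted C-type lectin of goblet-like and deep crypt secretory cells, was the single measured gene of the set whose arrays were lower in the MSCT group. It read 201 and 186 in the control group and 122 and 142 in the MSCT group. The groups did not overlap, but the gap between the nearest arrays was 0.39 on the log2 scale. Reg4 differed by -0.56 (standard error 0.20; limma unadjusted p = 0.0425, adjusted p = 0.403), a ratio of 1.47-fold, which is below the limit of the screen. All 4 values of Reg4 were dim, between the 7.16 and the 16.8 percentile of the arrays. With a variance that follows intensity, the unadjusted limma p of Reg4 was 0.276.

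Foxa3 (NM_017077), a forkhead transcription factor of the gut and liver, was the measured regulator of the set. The control rats had an intensity of 1529 and 2219, and the MSCT rats of 7421 and 6716. As with Zg16, control replicate 2 was above control replicate 1, and both MSCT arrays were far above both. The log2 mean was 10.85 ± 0.38 (SD, n = 2) in the control group and 12.79 ± 0.10 (SD, n = 2) in the MSCT group. Foxa3 differed by 1.94 (standard error 0.26), or 3.83-fold (limma adjusted p = 0.257, unadjusted p = 0.00110). Spdef, the other regulator, was matched to no row.

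The 4 genes past the screen passed it with each of the 4 arrays left out in turn. The lowest and highest differences were 2.38 and 2.93 for Zg16, 1.67 and 2.21 for Foxa3, 1.26 and 1.77 for Retnlb and 1.24 and 1.75 for Tff3. All 4 also passed by the methods' t-test with unadjusted p-values from 0.0114 to 0.0284 and a difference of over 2-fold, which 2.11% of all rows did. Zg16, Foxa3 and Tff3 lie in the brighter 50% of rows by mean intensity over all 4 arrays. Tff3 lay at the 48.2 and 39.1 percentile of the control arrays and at the 69.0 and 70.0 percentile of the MSCT arrays. It was thus kept only through the group where it was high, and its p-value under this filter is no separate support. When the dimmer rows were left out, 247 of the remaining 9175 rows had an adjusted limma p under 0.05. The adjusted limma p-values of Zg16, Foxa3 and Tff3 among them were 0.00658, 0.0132 and 0.0238. With a variance that follows intensity and all rows kept, they were 2.59e-04 for Zg16, 0.00129 for Foxa3 and 0.0161 for Tff3, against 0.109 for Retnlb, with 387 rows under 0.05. The call at an adjusted p of 0.05 therefore changed with the variance that was shared and the rows that were kept, while the sizes of the differences were those given above.

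**Figure D2:**
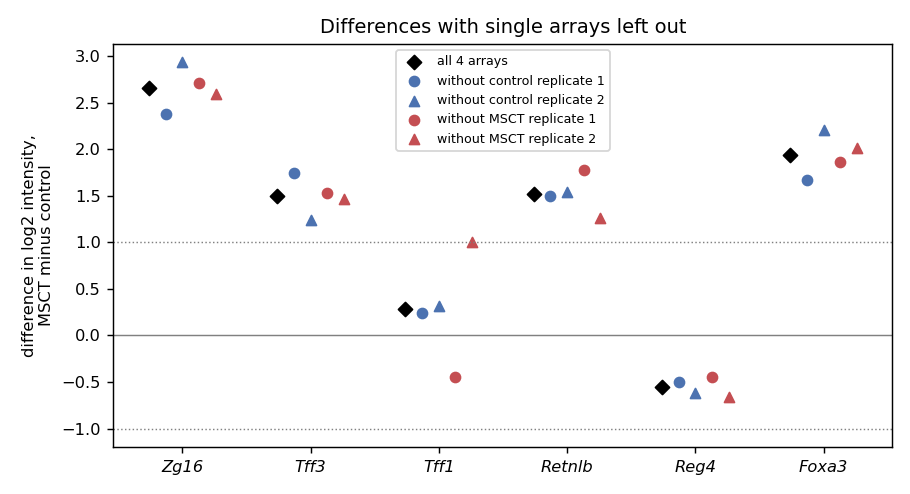
Difference in log2 intensity, MSCT minus control (vertical axis), of the 6 measured goblet cell genes (horizontal axis) with all 4 arrays (diamonds) and with 1 array left out (circles and triangles). Dotted lines mark a 2-fold difference. Zg16, Tff3, Retnlb and Foxa3 stayed above 1 in each case, Reg4 stayed between -0.45 and -0.66, and Tff1 changed sign without MSCT replicate 1.

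Sequence before the start of transcription was available in the RefSeq windows of GRCr8 for 4 of the 6 measured genes, and it is shown because 3 of these (Foxa3, Tff3 and Retnlb) were higher together while Reg4 was not. Exact matches were searched on both strands in the 250 bases before each start. Motifs were the Foxa core (TGTTTAC or TATTTAC), the Cdx core (TTTATG or TTTATT), an E-box core (CAGCTG), the ETS-type core of Spdef (CCGGAT) and the TATA box (TATAAA). The windows are Foxa3 at chr1:87799486-87799735 (minus strand), Tff3 at chr20:9199334-9199583 (minus strand), Retnlb at chr11:65448320-65448569 (minus strand) and Reg4 at chr2:188507434-188507683 (plus strand). Each is written 5′ to 3′ in the direction of the gene, with motif matches in capitals.
Foxa3: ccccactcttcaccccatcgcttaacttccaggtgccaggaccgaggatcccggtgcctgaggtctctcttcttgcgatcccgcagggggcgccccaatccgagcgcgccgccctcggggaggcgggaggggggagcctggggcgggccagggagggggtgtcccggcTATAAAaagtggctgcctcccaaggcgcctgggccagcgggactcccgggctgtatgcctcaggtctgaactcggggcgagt
Tff3: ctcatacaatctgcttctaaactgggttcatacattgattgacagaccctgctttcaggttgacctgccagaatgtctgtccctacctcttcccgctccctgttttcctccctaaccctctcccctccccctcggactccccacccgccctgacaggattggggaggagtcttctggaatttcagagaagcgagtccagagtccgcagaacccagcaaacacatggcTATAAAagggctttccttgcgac
Retnlb: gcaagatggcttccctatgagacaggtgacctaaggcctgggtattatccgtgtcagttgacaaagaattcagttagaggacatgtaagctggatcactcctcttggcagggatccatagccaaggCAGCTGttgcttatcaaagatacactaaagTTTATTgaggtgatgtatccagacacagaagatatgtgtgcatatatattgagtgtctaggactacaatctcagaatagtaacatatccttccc
Reg4: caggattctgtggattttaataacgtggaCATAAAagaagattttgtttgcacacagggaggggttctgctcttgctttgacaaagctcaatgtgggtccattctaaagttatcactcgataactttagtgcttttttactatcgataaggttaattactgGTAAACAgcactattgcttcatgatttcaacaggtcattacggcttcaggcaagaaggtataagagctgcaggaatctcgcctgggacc
No matches overlapped one another in these windows. A TATA box lay 23 to 18 bases before the start of Tff3 and 82 to 77 bases before that of Foxa3, and 12.9% of all 33469 promoter windows held one. Retnlb held an E-box core 124 to 119 bases and a Cdx core 94 to 89 bases before its start, which 12.0% and 27.1% of windows held. Reg4, the gene that was lower, held the one Foxa core among these windows (6.14% of all windows), on the opposite strand 89 to 83 bases before its start, and a Cdx core 221 to 216 bases before it. The Spdef core, held by 5.51% of windows, was in none of the 4. These matches describe letters in short windows and are not evidence of binding.

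Beyond the 10 genes, a list of 24 further products and regulators of goblet cells had 13 measured genes. With all 4 arrays and no further normalization, all 13 were higher in the MSCT group (55.8% of named genes were). The median of the log2 differences was 0.24, and 2 genes passed the screen. Gcnt3, an enzyme that branches the sugar chains of mucins, differed by 3.57 (standard error 0.21), with intensities of 462 and 446 in the control group and of 5974 and 4856 in the MSCT group. Bcas1 was 2.83-fold higher (standard error 0.19 on the log2 scale). Xbp1, a transcription factor that expands the secretory machinery, differed by 1.00 (standard error 0.20), just below the limit of 2-fold, and Itln1, a lectin released by goblet cells, by 0.88 (standard error 0.22). The other 9 had differences between 0.03 (Klf4) and 0.49 (Creb3l1), with unadjusted limma p-values above 0.05. The guanylin genes Guca2a and Guca2b were among these, at 0.17 and 0.21. The direction of the smallest differences was not stable. Klf4 was at -0.03 with quantile normalization and at -0.02 when arrays were centred on pan-epithelial or on reference genes. Some other small differences of this list changed sign when 1 array was left out. Of 13 further mucin genes, 1 (Muc15) had a row, which was blank on all 4 arrays, so no mucin was measured by name.

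Mucin granules are released by fusion with the cell membrane. Of 18 genes of this machinery, 17 were measured, with a median difference of 0.08 and 12 genes higher. The small GTPase Rab27a, which ties secretory granules to the cell cortex, passed the screen with a difference of 1.04 (standard error 0.23), and it fell below the limit of 2-fold without control replicate 1 (0.89) or without MSCT replicate 2 (0.88), and when arrays were centred on reference genes (0.99) or pan-epithelial genes (0.996). Rab3d, another GTPase of secretory granules, differed by 0.77 and Sytl4, a partner of Rab27 proteins, by 0.68, both with an unadjusted limma p under 0.05 and below the limit of the screen. Without MSCT replicate 2, the genes of these lists past the screen were 5: Gcnt3, Bcas1, Itln1 (1.07), Xbp1 (1.02) and, lower in the MSCT group, Unc13d (-1.03), a priming factor of granule fusion. The SNARE genes, which carry out the fusion, went both ways: Vamp8 differed by 0.26, Vamp3 by 0.08, Vamp7 by 0.08, Stx3 by 0.07 and Snap23 by 0.06, whereas Stx4 differed by -0.08, Stx2 by -0.24 and Vamp2 by -0.40. None of these 8 had an unadjusted limma p under 0.05.

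**Figure D3:**
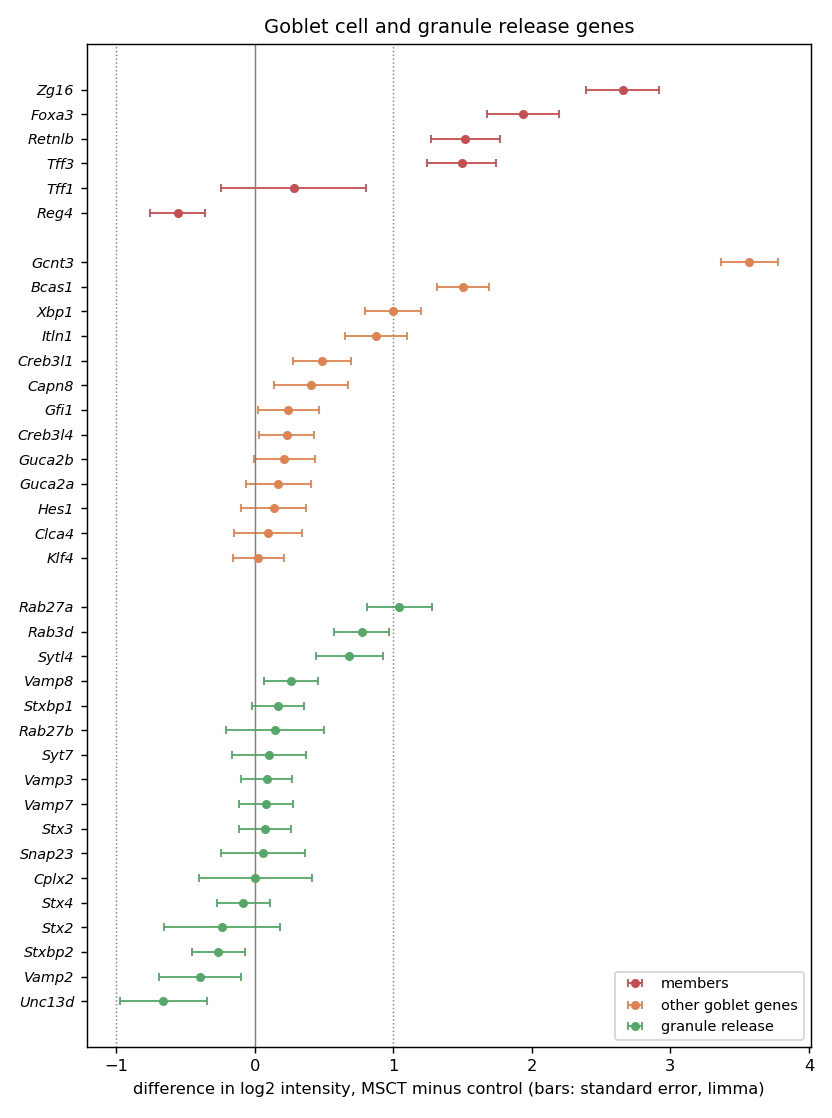
Difference in log2 intensity, MSCT minus control (horizontal axis), for the 6 measured goblet cell genes, 13 other goblet cell genes and 17 genes of granule release, each on a line of its own. Bars are limma standard errors and dotted lines mark a 2-fold difference. In the 3 sets, 4, 2 and 1 genes lay above 1 and passed the screen, and the genes of granule release were spread around 0.

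Markers of all colon epithelium differed little between the groups. In this list of 15 genes, 13 were measured, with a median difference of 0.07, none passed the screen, and 1 had an unadjusted limma p under 0.05, the transcription factor Elf3, which was lower (-0.72). Their summed intensity was 234525 and 231167 in the control rats and 248546 and 237994 in the MSCT rats. Epcam differed by 0.07 and Cdh1, which encodes E-cadherin, by -0.03. When each array was centred on these genes, the differences of the goblet cell genes were 2.61 for Zg16, 1.89 for Foxa3, 1.47 for Retnlb and 1.45 for Tff3. The median of 5 measured smooth muscle genes differed by 0.02, with Acta2 at -0.04 and summed intensities of 141287 to 171485 on the control and 154976 to 159204 on the MSCT arrays. Myh11 and Vil1 were matched to no row.

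Some markers of other cells moved with the goblet cell genes and others did not, and their part in the result was not tested. Of 12 measured absorptive genes, 3 passed the screen, Fabp1 (4.01), Fabp2 (3.38) and Alpi (1.39), all higher. In all 8 of the 12 were higher and 4 were lower. The groups did not overlap for any of the 12, as for 45.8% of all rows. The 4 lower genes were Scnn1a (-0.73), Ceacam1 (-0.58), Aqp8 (-0.30) and Cdhr5 (-0.28). Of these 4, Scnn1a had an unadjusted limma p under 0.05 and none passed the screen. The summed intensity of the 12 was 108805 and 110128 on the control and 128364 and 123542 on the MSCT arrays. Krt20, a keratin of mature surface cells, differed by 0.39. Of 10 hormone cell genes, Gcg, which encodes glucagon and its related peptides, passed the screen (2.41), and Chga differed by 0.66. Of the 10, 6 were higher and 4 lower, the lowest being Scg3 (-0.46), with a median of 0.26. The summed intensity of the hormone cell genes was 12224 to 12818 on the control and 17303 to 17986 on the MSCT arrays. Of 5 measured leukocyte genes, the macrophage genes Cd68 (1.29) and Csf1r (1.00) passed, with summed intensities of 2812 to 3006 and of 5413 to 6278, and Ptprc was matched to no row. Of 5 measured mast cell genes, the protease row named Mcpt1 passed (4.41), with summed intensities of 1053 to 1326 and 3099 to 4139.5. The paper gives a change of this size for Mcpt2, which was matched to no row here, and a smaller one for Mcpt1. Of 5 measured Paneth cell and defence genes, Lcn2 (1.93) and Pla2g2a (1.34) passed, with summed intensities of 32113 to 35558 and 37688 to 40972. Zg16 is also known from zymogen granules of the pancreas. Of 13 pancreatic genes, 4 were measured and Cela1 passed (1.46), Prss1 lay between 73.2 and 237 on all 4 arrays, and Cpa1 was blank. Several of these calls rested on single arrays. Csf1r was below 2-fold without control replicate 2 (0.96) or MSCT replicate 2 (0.97), Alpi without control replicate 1 (0.97), and Cela1 without MSCT replicate 2 (0.94). Without MSCT replicate 1, Alpi (1.15) had an unadjusted limma p of 0.0602, and Cela1 had one of 0.0666 without control replicate 1 (1.47) and of 0.0691 without control replicate 2 (1.45). Without control replicate 1, Fabp1 and Fabp2 differed by 3.09 and 2.15, and without control replicate 2 by 4.93 and 4.61.

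**Figure D4:**
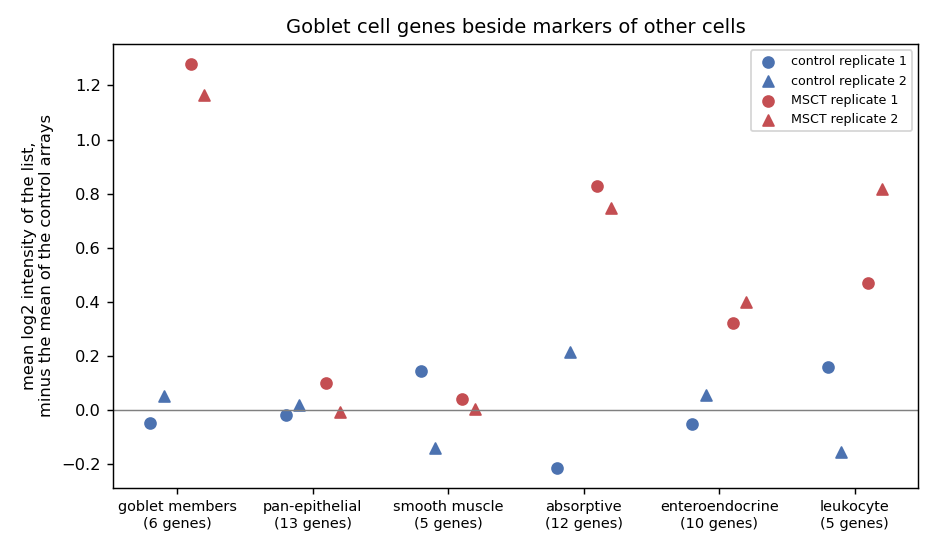
Mean log2 intensity of each list on each array, minus the mean of the control arrays (vertical axis), for the goblet cell genes and 5 lists of markers (horizontal axis, with the number of measured genes). Circles are replicate 1 and triangles replicate 2. The pan-epithelial and smooth muscle lists stayed near 0 on the MSCT arrays, whereas the goblet, absorptive, enteroendocrine and leukocyte lists lay above both control arrays.

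The 4 genes past the screen had different nearest neighbours in their profile over the arrays. Likeness was taken as the distance between log2 values, each gene centred on its own mean over the 4 arrays, among 6968 named genes. Nearest to Zg16 were Nr1d1 (0.18), Ugt8 (0.36) and Fkbp5 (0.38), and the nearest member was Foxa3 (0.74), at place 12. Nearest to Foxa3 were Fosl1 (0.24), Rgs16 (0.25) and Acot1 (0.26). Tff3 and Retnlb, which were 0.50 apart, had other neighbours: Tyrobp (0.11), RT1-Bb (0.12) and Clec10a (0.16) for Tff3, and Klk1c9 (0.09), C1qb (0.13) and RT1-Ba (0.16) for Retnlb. The genes differed both in the size of the group difference and between the control arrays, where Zg16 and Foxa3 were higher on replicate 2, Tff3 was higher on replicate 1, and Retnlb was nearly equal on both. With 4 arrays many genes have near profiles, and these distances are a description.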

How the data were processed

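Colon RNA of 2 control and 2 MSCT samples, each taken as 1 rat, was hybridized to one-color NimbleGen arrays. The authors scanned the arrays, extracted them with NimbleScan and deposited 1 linear intensity per transcript and array. The submitters' processing notes name RMA, and the steps taken, the rule for blank rows (8070 of 26420) and the genome build are not given in the sources used here. Values were used as log2 without pseudocount or filter. No value column was left without a sample.

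limma 3.58.1 in R 4.3.3 (lmFit, eBayes) was run over all measured rows with Benjamini-Hochberg adjustment, and was checked on simulated data. It was not stated that the 2 rats of a group were housed or processed separately, so the spread behind the p-values is that between these samples. In limma the spread of each row is combined with a variance estimated over all rows. Rows were named through the RefSeq table of GRCr8, which named 7068 rows (38.5%). Python 3.11.15, pandas 2.3.3 and matplotlib 3.10.9 were used for counts and figures.

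The members and lists were chosen with earlier results of these data known. Named are the 10 members, up to 5 genes per list and direction past the screen, defining markers, reference genes and the 3 nearest profiles per member past the screen. Xbp1, Itln1, Rab3d, Sytl4, Unc13d, Elf3 and the lower absorptive and hormone cell genes, the genes given for ranges, the SNARE genes, the guanylin genes and Muc15 were named after their values were seen. On the log2 scale the usual reference genes differed by 0.12 (Actb), -0.19 (Gapdh), 0.44 (Hprt1) and -0.17 (B2m), and none passed the screen. Of 8 stem cell genes, 3 were measured by name and none of these passed (median 0.00). Olfm4 was matched to no row here. The paper lists it among the genes most raised after MSCT on its chips, whereas its PCR found it lower than in the IBD group.

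The methods' t-test is the 2-group form of the analysis of variance that the study names in its general statistics. For the chips the paper gives limits of p and fold and names no test, but its counts of genes equal those of this t-test. Alternatives were a limit of 1.5-fold, a fold limit without p, the methods' t-test, pseudocounts of 16 and 64, array medians made equal, quantile normalization, centring on pan-epithelial or on reference genes, dropping the lower 25% or 50% of rows by mean intensity, a variance that follows intensity (trend and robust), weights per array, a block for the replicate number, the row with the largest difference, and dropping each array.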

Additional observations from a re-analysis of the deposited data

How the results depend on the processing

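Of 109 values of the 6 goblet cell genes under the alternatives, 107 kept their direction and their side of the screen. The other 2 were Tff1, which differed by -0.45 without MSCT replicate 1 and by 1.01 without MSCT replicate 2. Many of the 107 could not have changed direction. The methods' t-test, the other limits, dropping dim rows, a variance that follows intensity, array weights and the replicate block leave each difference as it was. Taking the row with the largest difference repeated the main fit, because none of these genes had a further row. The count of goblet cell genes past the screen was 4 in each alternative except without the dimmest 50% of rows, where it was 3 of the 3 genes left, and without MSCT replicate 2, where it was 5 with Tff1. Without the dimmest 25% of rows, the 4 were all the genes left, since Tff1 and Reg4 were dropped. Retnlb was kept there only through the group where it was high. It lay at the 14.1 and 13.4 percentile of the control arrays and at the 34.7 and 41.0 percentile of the MSCT arrays. Its passing under this filter is thus no separate support. The other goblet, mucin and granule release genes past the screen numbered 3. They were 2 when arrays were centred on pan-epithelial or on reference genes, 4 with array medians made equal and 7 at a limit of 1.5-fold. The share of all rows past the screen moved from 4.63% to 2.11% by the methods' t-test, 2.74% without the dimmest 50% of rows, 11.0% at 1.5-fold and 5.09% to 8.53% with single arrays left out.

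With the replicate number as a replicate block, 4 of the goblet cell genes passed the screen, as without it, and 971 rows against 850. Same-numbered samples come from different rats, so the numbers were not taken as pairs. Their deviations correlated at 0.23 across rows, which is no reason against the block, and its counts are given above. Other named genes kept their call in 224 of 242 values and lost it in 18, which include Rab27a, Csf1r, Alpi, Cela1 and Fabp2. Some of the 224 were also fixed beforehand, since the looser limits and the row with the largest difference could not remove a call. The number of arrays (2 per group) limits the precision of every value, and for the dim rows of Reg4, Tff1 and Retnlb the distance from background is not known.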
